A study of Mus musculus with 27 samples.

Results

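Lungs that had received allergen alone were set directly against lungs that had received combustion products alone, to show which genes differ between these exposures. The members are the libraries whose labels give house dust mite extract (HDM) followed by saline (HDM_SAL, n = 6) and phosphate-buffered saline (PBS) followed by combustion products (PBS_CP, n = 7), together 13 of the 27 libraries of the series. Each is whole lung from a male wild type C57Bl/6J mouse of 7 to 8 weeks, profiled by polyA-selected bulk RNA sequencing. HDM_SAL mice had 5 oropharyngeal instillations of 10 µg HDM in 50 µl, 2 to 3 days apart, then 100 µl saline 24 h after the last. PBS_CP mice had 5 instillations of 50 µl PBS without HDM, then 100 µl of a suspension of 2 mg combustion products per ml saline, the products having come from burned paper, plastic and plywood. Lungs of both groups were taken 24 h after the second agent. PBS_SAL mice (n = 7), which had PBS and then saline, are given as a background level. The 2 exposures differ in both agents at once, in number of active doses and in the interval from the active agent to harvest, so a difference between them cannot be assigned to 1 agent without the PBS_SAL values.

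House dust mite extract carries proteases and microbial products that, given repeatedly through the airway, start a type 2 response: interleukin 4 and interleukin 13 act through STAT6 on epithelium and macrophages, airway goblet cells make mucus, and chemokines call in eosinophils and monocyte-derived cells. Combustion products carry polycyclic aromatic hydrocarbons, which bind the aryl hydrocarbon receptor. That receptor moves to the nucleus, pairs with ARNT, binds short GCGTG elements and switches on enzymes that oxidize such compounds. In lung, Cyp1a1 and Cyp1b1 are its best known targets.

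Deposited estimated counts summed to 70.5 to 83.3 M (1 M is 1e+06) per HDM_SAL library and 56.5 to 74.0 M per PBS_CP library, and 24629 of 56941 genes passed a filter on low counts. Levels are CPM, estimated counts scaled to 1e+06 per library, fold changes are log2 of HDM_SAL over PBS_CP with their standard error (SE), and "called" means a p of at most 0.05 after Benjamini-Hochberg adjustment over all 24629 genes in the quasi-likelihood test of edgeR. Alveolar type 2 markers, a lung-defining list of 15 genes, summed to 20860.0 to 27690.0 CPM in HDM_SAL and 22090.0 to 25140.0 CPM in PBS_CP. The share of counts from mitochondrial genes was 2.93% ± 0.586 in HDM_SAL and 2.39% ± 0.231 in PBS_CP (SD, n = 6 and n = 7; exact permutation test, two-sided, p = 0.0420, 0.105 after adjustment over 5 library measures), and its part in the results was not tested. Log2 CPM correlated by 0.9686 to 0.9793 across genes between HDM_SAL libraries and by 0.9717 to 0.9785 between PBS_CP libraries.

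One combustion library, PBS_CP 57, stood apart, and the counts of called genes are given with and without it. On the first principal component of the 500 most variable genes, which held 25.1% of their variance, the HDM_SAL libraries lay at 22.8, -6.92, 28.9, 15.6, 32.5 and 7.76 (numbers 50, 52, 54, 72, 99 and 100). PBS_CP 57 lay at 9.55 and the 6 other PBS_CP libraries at -23.8 to -12.3. PBS_CP 57 therefore sat among the allergen lungs on this axis, and HDM_SAL 52 was the allergen lung nearest to the combustion lungs. For Cyp1a1, a gene called higher in PBS_CP than in PBS_SAL, PBS_CP 57 had 254 CPM and was the median of its group. What sets that library apart was not tested.

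Across all genes, 160 were called (0.65%), 139 higher and 21 lower in HDM_SAL than in PBS_CP (0.564% and 0.0853%), and 77 of the higher and 4 of the lower genes differed by 2-fold or more. At an unadjusted p under 0.05 there were 3100 genes (12.6%), 1776 higher and 1324 lower, DESeq2 called 367 higher and 132 lower genes, and the median log2 fold change of all genes was 0.0101. Without PBS_CP 57, 244 genes were called (0.991%), 211 higher and 33 lower (0.857% and 0.134%). Both fits called 136 of the higher and all 21 of the lower genes. Libraries did not overlap between the groups at 133 genes with HDM_SAL above and 56 with HDM_SAL below (0.54% and 0.227%), and at 234 and 96 genes without PBS_CP 57 (0.95% and 0.39%).

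Set against PBS_SAL, HDM_SAL had 1339 genes called (5.44%), 786 higher and 553 lower (3.19% and 2.25%), and PBS_CP had 2 genes called, both higher (0.00812%). The contrasts share their PBS_SAL libraries. DESeq2 called 1087 higher and 922 lower genes in HDM_SAL and 13 higher and 19 lower in PBS_CP.

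The count of calls depended on single libraries. It was 46 without HDM_SAL 99, 68 without HDM_SAL 50 and 72 without HDM_SAL 54, but 384 without HDM_SAL 52, 359 without HDM_SAL 100 and 158 without HDM_SAL 72. Leaving out PBS_CP 58, 59, 75, 76, 101 or 102 gave 57, 66, 71, 72, 88 and 87 calls in that order, and leaving out PBS_CP 57 gave 244. Thus the count grew when HDM_SAL 52, HDM_SAL 100 or PBS_CP 57 was absent and shrank in most other cases, as the plot of calls by library left out shows. Without HDM_SAL 50, 54 and 99 together, 6 genes were called, and 34 when PBS_CP 57 was absent too. These were the HDM_SAL libraries of highest mitochondrial share. They also lay furthest along the first principal component (22.8, 28.9 and 32.5), and without them HDM_SAL 52, 72 and 100 remained. Share, place on that axis and number of libraries cannot be told apart here. Of 48 genes named by rule and called, 20 kept the call in the fit over all groups whichever of the 13 libraries was left out: Adra2a, Bmper, C3, Ccl8, Cd209e, Ces1g, Chia1, Chil3, Col6a5, Cyp1a1, Il13ra2, Lypd2, Me1, Mgl2, Nqo1, Pigr, Retnla, Sftpa1, Sftpd and Slc26a4. Of these 20, Il13ra2 passed the filter on low counts without any count in the 7 PBS_CP libraries. It was called in 7 of 14 settings other than the leave-outs, so its place here is no measure of stability. A fit on the 13 compared libraries alone called 109 genes, 67 of them shared with the 160. Of the 48 named genes, 23 kept the call there. Those that lost it include Adra2a (adjusted p = 0.0908), Retnla (0.0871) and Muc5ac (0.161). All 3 were called when PBS_CP 57 was left out of that fit too. Cyp1a1, Nqo1, Ces1g, Cyp1b1, Il13ra2, Spdef and Tnfrsf9 were called in neither of these smaller fits. Of the genes that kept the call in every leave-out, Cd209e and Me1 also lost it in the fit on 13 libraries.

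**Figure D1:**
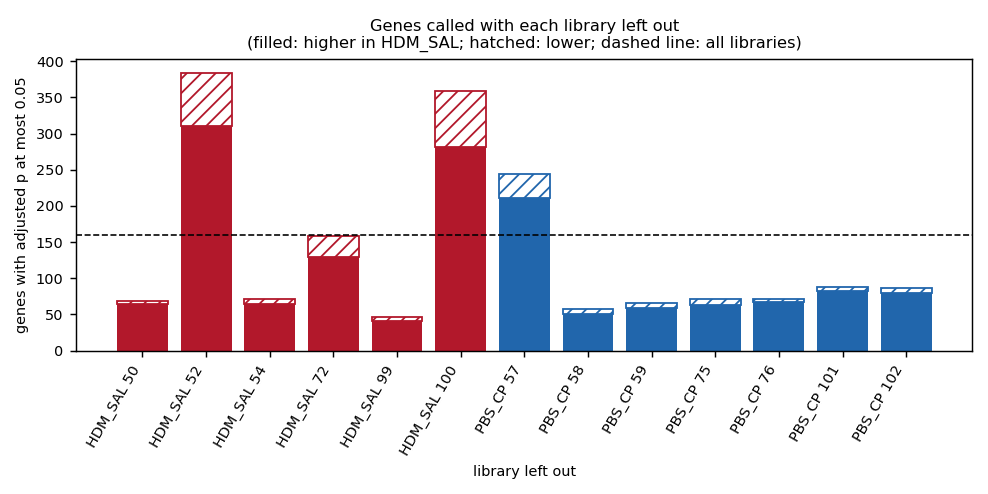
Number of genes with adjusted p at most 0.05 in HDM_SAL over PBS_CP when the library named on the x axis is left out; filled bars are genes higher and hatched bars genes lower in HDM_SAL, red for HDM_SAL libraries and blue for PBS_CP libraries. The dashed line is the 160 genes called with all libraries, and the bars run from 46 (without HDM_SAL 99) to 384 (without HDM_SAL 52).

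Genes of mucus and goblet cells were the list with the largest median difference among the 45 lists, with HDM_SAL above PBS_CP. Of 24 measured members of 25, 8 were called higher and 0 lower, with 19 higher and 0 lower at an unadjusted p under 0.05 and 15 and 0 by DESeq2. The median log2 fold change was 3.09, and 14 members were called higher without PBS_CP 57, with a median of 3.85. The members' CPM summed to 309.5 to 4492 in HDM_SAL and 133.8 to 994 in PBS_CP, against 82.8 to 204.3 in PBS_SAL. PBS_CP 57 held the 994, and the 6 other PBS_CP libraries were at 156.9 or below. In whole lung, fewer cells of a type and less RNA per cell cannot be told apart.

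Clca1, a secreted goblet cell protein that regulates a chloride channel (chromosome 3, 144709578 to 144738537 on GRCm39), had 46.4 to 2647 CPM (median 1224) in HDM_SAL, against 4.1 to 515 CPM (median 8.12) in PBS_CP and a median of 7.87 CPM in PBS_SAL. PBS_CP 57 made the overlap: at 515 CPM it exceeded HDM_SAL 52 (46.4 CPM) and HDM_SAL 100 (454 CPM), while the other combustion lungs reached 11.1 CPM. The difference was not called with all libraries (4.06 ± 1.10, adjusted p = 0.0868) and was called without PBS_CP 57 (7.50 ± 0.81, adjusted p = 1.31e-05) or without HDM_SAL 52 (adjusted p = 0.0426). Other tools called it with all libraries: DESeq2 (adjusted p = 0.0119), limma voom with sample quality weights (0.0114) and all 3 limma fits on TPM (0.00294 to 0.00439). Muc5ac, the gel-forming mucin of goblet cells, had 7.09 to 228 CPM (median 91.8) in HDM_SAL and 1.87 to 42.6 CPM (median 2.51) in PBS_CP, where PBS_CP 57 was again the highest library. It was higher in HDM_SAL with all libraries (3.63 ± 0.80, adjusted p = 0.0356), and further apart without PBS_CP 57 (5.36 ± 0.67, adjusted p = 7.94e-05). Its call was lost without HDM_SAL 50, 54 or 99 or without any PBS_CP library other than 57 (adjusted p up to 0.107).

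Muc5b, the other large airway mucin, ran from 31.2 to 396 CPM (median 231) in HDM_SAL and 8.73 to 89.3 CPM (median 17.2) in PBS_CP (3.06 ± 0.63, adjusted p = 0.0222). Fcgbp, a mucus-layer protein, was at 8.9 to 269.8 CPM (median 92) in HDM_SAL and 2.17 to 57.9 CPM (median 3.49) in PBS_CP (3.33 ± 0.78, adjusted p = 0.0445). In both genes the groups overlapped through PBS_CP 57, and without it every HDM_SAL library was above every PBS_CP library. The Muc5b call was lost in 8 of 13 leave-outs (HDM_SAL 54 and 99, and each PBS_CP library but 57; adjusted p up to 0.0732). The Fcgbp call was lost in 10 (also HDM_SAL 50 and 72; adjusted p up to 0.141).

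The anion exchanger Slc26a4 (pendrin), which moves chloride and bicarbonate at the airway surface, had 41.5 to 164 CPM (median 77.4) in HDM_SAL and 4.65 to 28.7 CPM (median 5.01) in PBS_CP. No library overlapped, PBS_CP 57 included, and the fold change was 3.24 ± 0.47, adjusted p = 0.000939. Pigr, which carries IgA across epithelium, had 119.5 to 479 CPM (median 299.7) in HDM_SAL and 49.8 to 149.9 CPM (median 61.4) in PBS_CP (1.97 ± 0.32, adjusted p = 0.00321), with PBS_CP 57 at 149.9 CPM the sole PBS_CP library inside the HDM_SAL range. Spdef, a transcription factor of goblet cell differentiation, was at 0.947 to 7.34 CPM (median 3.65) in HDM_SAL and 0.817 to 1.75 CPM (median 1.18) in PBS_CP (1.52 ± 0.32, adjusted p = 0.0212). HDM_SAL 52 (0.947 CPM) and HDM_SAL 100 (1.46 CPM) lay within the combustion range, and the Spdef call was lost without HDM_SAL 54 or 99 or PBS_CP 58, 75, 76 or 101 (adjusted p up to 0.0999). Retnlb, a resistin-like protein of goblet cells, had a median of 0.639 CPM in HDM_SAL, was listed at 0 in 6 of 7 PBS_CP libraries and reached 0.0606 CPM in PBS_CP 58, so no fold is given.

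**Figure D2:**
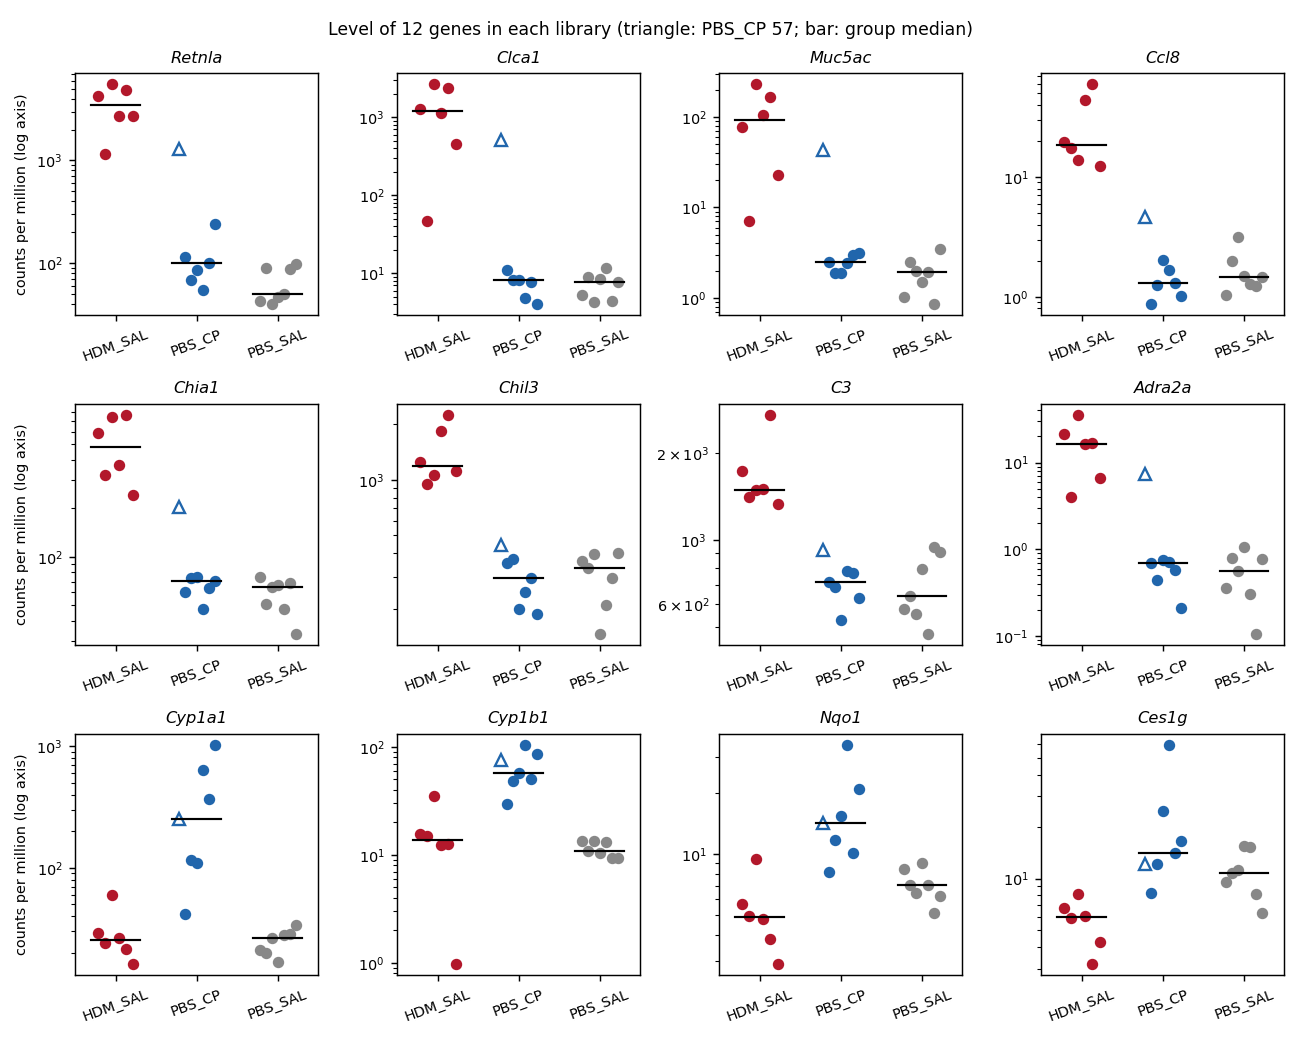
Level of 12 genes in every library (CPM, log axis) in HDM_SAL (red), PBS_CP (blue) and PBS_SAL (grey); the open triangle is PBS_CP 57 and black bars are group medians over all libraries. The upper rows show genes higher in HDM_SAL, where PBS_CP 57 is the highest combustion library (Clca1 at 515 CPM), and the bottom row shows genes higher in PBS_CP, where it lies inside its group (Cyp1a1 at 254 CPM).

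Type 2 cytokine and chemokine genes were higher in HDM_SAL for 3 of 10 measured members of 14 (0 lower; 7 and 0 at an unadjusted p under 0.05; median log2 fold change 1.07). Ccl8, a chemokine that in mice binds CCR8 on type 2 helper cells (chromosome 11, 82006011 to 82007625), had 12.4 to 59.1 CPM (median 18.6) in HDM_SAL and 0.878 to 4.64 CPM (median 1.31) in PBS_CP, near the PBS_SAL median of 1.46 CPM. The lowest allergen lung was above the highest combustion lung, PBS_CP 57. The fold change was 3.92 ± 0.49, adjusted p = 0.000174, and the call held in all 32 alternatives tried, a fit on the compared libraries alone included.

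The eosinophil chemokines Ccl11 and Ccl24, which bind CCR3, were also called. Ccl11 had 2.25 to 27.7 CPM (median 12.9) in HDM_SAL and 2.49 to 5.57 CPM (median 3.52) in PBS_CP (2.08 ± 0.42, adjusted p = 0.0174). HDM_SAL 100, at 2.25 CPM, was under all 7 combustion lungs, the 5 other allergen lungs were above all 7, and the call was lost without HDM_SAL 99 or PBS_CP 58 (adjusted p up to 0.0732). Ccl24 had 0.585 to 6.48 CPM (median 1.91) in HDM_SAL and 0.147 to 1 CPM (median 0.304) in PBS_CP (2.76 ± 0.65, adjusted p = 0.0445). Its ranges overlapped through PBS_CP 57, and it lost the call in 10 of 13 leave-outs (every library but HDM_SAL 52, HDM_SAL 100 and PBS_CP 57; adjusted p up to 0.192). Il13, the cytokine that drives goblet cell change, had 0.072 to 1.06 CPM (median 0.591) in HDM_SAL and 0 to 0.228 CPM (median 0.116) in PBS_CP. HDM_SAL 100 lay within the combustion range and the 5 other allergen lungs above it, and the difference was not called (2.47 ± 0.74, adjusted p = 0.125). Il4 and Il5 were not called either (0.27 ± 0.20, adjusted p = 0.623, and 0.63 ± 0.29, adjusted p = 0.367).

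Among 15 receptor and signalling genes of the type 2 response, 2 were called higher and 0 lower (3 and 1 at an unadjusted p under 0.05), and the median was 0.0751, unchanged when the gene with no combustion counts was set at its bound. Il13ra2, the decoy receptor that binds interleukin 13, had 0 to 0.448 CPM (median 0.231) in HDM_SAL, with HDM_SAL 52 and 100 at 0. It was at 0 in all 7 PBS_CP libraries, so no fold is given and its call rests on a group without counts. Socs1, an inhibitor of cytokine signalling, had 5.34 to 8.14 CPM (median 6.18) in HDM_SAL and 2.54 to 5.06 CPM (median 3.72) in PBS_CP without overlap (0.78 ± 0.17, adjusted p = 0.0321), and lost the call without HDM_SAL 50 or 99 or PBS_CP 58, 59, 76 or 101 (adjusted p up to 0.132). Of 10 measured eosinophil genes, 2 were higher and 0 lower at an unadjusted p under 0.05, and 2 and 0 by DESeq2. In edgeR's test they gave 1 call, Ear2, a ribonuclease with close paralogs that macrophages make too. It had 68.1 to 109.9 CPM (median 74.1) in HDM_SAL and 28.7 to 57.9 CPM (median 47.5) in PBS_CP without overlap (0.87 ± 0.20, adjusted p = 0.0383), and lost the call in 10 leave-outs (every library but HDM_SAL 52, HDM_SAL 100 and PBS_CP 57; adjusted p up to 0.156). The granule genes that define eosinophils, outside the naming rule and chosen after their values were seen, were at or near 0: Epx and Prg3 were listed at 0 in all HDM_SAL libraries and Prg2 reached 0.317 CPM. Eosinophil list members summed to 106.3 to 163.6 CPM in HDM_SAL and 66.9 to 122.7 CPM in PBS_CP.

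Alternative macrophage activation genes were higher in 6 of 14 measured members of 15 (0 lower; 11 and 0 at an unadjusted p under 0.05), with a median log2 fold change of 0.988. Their CPM summed to 3267 to 9041 in HDM_SAL and 1186 to 2827 in PBS_CP, with PBS_CP 57 at 2827 and the others at 1607 or below. Retnla, a resistin-like protein of alternatively activated macrophages and airway epithelium (chromosome 16, 48662914 to 48664824), had 1155 to 5530.0 CPM (median 3488) in HDM_SAL and 54.8 to 1288 CPM (median 98.9) in PBS_CP. PBS_CP 57 exceeded the lowest allergen lung, HDM_SAL 52, and the next combustion lung had 241 CPM. The fold change was 3.67 ± 0.64, adjusted p = 0.0073, and without PBS_CP 57 it was 5.0 ± 0.44, adjusted p = 5.43e-07. Against PBS_SAL, a group both contrasts share, Retnla differed by 5.78 ± 0.70 in HDM_SAL (called) and by 2.11 ± 0.59 in PBS_CP (not called, adjusted p = 0.438).

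Chil3, a chitinase-like protein secreted by macrophages (chromosome 3, 106054870 to 106074880), had 954 to 2253 CPM (median 1180.0) in HDM_SAL and 188 to 442 CPM (median 294) in PBS_CP without overlap (2.24 ± 0.30, adjusted p = 0.000307). Its close paralog Chil4 had 9.76 to 637 CPM (median 176) in HDM_SAL and 1.82 to 59.5 CPM (median 3.42) in PBS_CP, where PBS_CP 57 was the library at 59.5 CPM (4.33 ± 0.90, adjusted p = 0.0228; without PBS_CP 57, 6.24 ± 0.78, adjusted p = 7.94e-05). The counting could have split reads between these paralogs, and the Chil4 call was lost without HDM_SAL 99 or any PBS_CP library but 57 (adjusted p up to 0.0967). Chia1, a true chitinase that cleaves the chitin of mites and fungi (chromosome 3, 106020545 to 106039436), had 242 to 768 CPM (median 483) in HDM_SAL and 47.2 to 204 CPM (median 71) in PBS_CP. All 6 allergen lungs were above all 7 combustion lungs, the fold change was 2.57 ± 0.32, adjusted p = 0.000174, and the call held in all 32 alternatives. The lectin receptors Mgl2 (0.81 ± 0.15, adjusted p = 0.0101) and Cd209e (4.35 ± 0.72, adjusted p = 0.00321) were higher without overlap, Cd209e at 1.31 to 7.51 CPM (median 2.77) in HDM_SAL and 0 to 0.986 CPM (median 0.0693) in PBS_CP. Arg1, an arginase of the same macrophages, had 3.08 to 24.4 CPM (median 5.5) in HDM_SAL and 1.07 to 3.42 CPM (median 1.78) in PBS_CP and was not called (2.10 ± 0.62, adjusted p = 0.122).

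The promoters of Retnla (chr16:48842359-48842658, plus strand) and Cd209e (chr8:3854237-3854536, minus strand) are shown because both genes were called in every leave-out and both windows hold a match to TTCNNNNGAA, the palindromic spacing that STAT6 prefers. Sequences are from RefSeq on GRCm38.p6, a build other than that of the counts, run 5′ to 3′ on the gene's strand from 250 bases before the gene start to 50 after it, and have the match in capitals.
Retnla: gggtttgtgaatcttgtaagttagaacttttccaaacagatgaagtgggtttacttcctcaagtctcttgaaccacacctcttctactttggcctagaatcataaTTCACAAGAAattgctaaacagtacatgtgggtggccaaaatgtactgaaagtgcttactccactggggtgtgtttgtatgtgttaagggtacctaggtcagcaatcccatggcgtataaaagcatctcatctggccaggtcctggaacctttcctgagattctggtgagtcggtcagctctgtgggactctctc
Cd209e: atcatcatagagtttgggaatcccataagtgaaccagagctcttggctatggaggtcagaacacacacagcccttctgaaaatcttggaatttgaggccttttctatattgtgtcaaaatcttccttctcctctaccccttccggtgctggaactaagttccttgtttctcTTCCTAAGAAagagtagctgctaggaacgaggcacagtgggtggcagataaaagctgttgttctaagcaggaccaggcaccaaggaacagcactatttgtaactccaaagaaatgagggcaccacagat
The match begins 145 bases before the start of Retnla and 79 before that of Cd209e. Searched on both strands, TTCNNNNGAA occurred in 6.95% of all 32851 promoter windows. A window was found for 95 of the 139 genes higher in HDM_SAL and for 17 of the 21 lower genes. Of these genes, 12 (12.6%) and 0 had a match in any window. For the related spacing TTCNNNGAA the shares were 8.3% (all windows), 10.5% (higher genes) and 11.8% (lower genes). The share of all windows counts windows, whether or not the gene passed the filter on low counts. The others count genes, so they are not like for like. A match is a description of letters in the window.

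Complement genes were called higher in 2 of 18 members (0 lower; 10 and 3 at an unadjusted p under 0.05; median 0.501). C3, the central complement component and an acute phase protein (chromosome 17, 57510970 to 57535136), had 1338 to 2733 CPM (median 1494) in HDM_SAL and 528 to 925 CPM (median 713) in PBS_CP without overlap (1.25 ± 0.18, adjusted p = 0.000572). Cfi, the protease that degrades activated C3, had 1.47 to 3.21 CPM (median 1.98) in HDM_SAL and 0.629 to 1.99 CPM (median 0.849) in PBS_CP (1.22 ± 0.29, adjusted p = 0.0429), and lost the call in 9 leave-outs (HDM_SAL 50, 54 and 99 and every PBS_CP library but 57; adjusted p up to 0.162). Among 24 monocyte and recruited macrophage genes 3 were called higher, Chil3, Cd14 and Ccr2, and 0 lower. At an unadjusted p under 0.05, 11 were higher and 1 lower, by DESeq2 6 and 0, and the median was 0.202. Among 20 alveolar macrophage genes 2 were called higher, Chil3 and Ear2, and 0 lower. Here 9 were higher and 0 lower unadjusted, 4 and 0 by DESeq2, and the median was 0.176. Chil3 is in both lists, and 0.564% of all genes were called higher. Ccr2, the chemokine receptor that brings monocytes out of blood, had 79.1 to 137 CPM (median 89) in HDM_SAL and 58.1 to 74.7 CPM (median 68.4) in PBS_CP without overlap (0.53 ± 0.11, adjusted p = 0.0258; lost without HDM_SAL 99 or PBS_CP 58, 75, 76 or 102, adjusted p up to 0.107). Cd14, the endotoxin co-receptor, had 27.4 to 67 CPM (median 46.6) in HDM_SAL and 19.8 to 30.2 CPM (median 24) in PBS_CP (0.95 ± 0.19, adjusted p = 0.0174; lost without HDM_SAL 54 or 99 or PBS_CP 58 or 59, adjusted p up to 0.0754).

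Acute inflammatory cytokines and neutrophil chemokines gave 1 call among 21 measured members of 24. Cxcl5, an epithelial chemokine for neutrophils, had 1.35 to 12.5 CPM (median 2.44) in HDM_SAL and 0.241 to 1.65 CPM (median 0.636) in PBS_CP (2.47 ± 0.55, adjusted p = 0.0356), and lost the call in 8 leave-outs (HDM_SAL 54 and 99 and every PBS_CP library but 57; adjusted p up to 0.195). Of 20 measured neutrophil genes of 23, the called one was Retnlg (1.45 ± 0.33, adjusted p = 0.0357; lost in 9 leave-outs, HDM_SAL 50, 54 and 99 and every PBS_CP library but 57, adjusted p up to 0.127), and the list median was -0.0402. Summed neutrophil markers spanned 186.1 to 275.4 CPM in HDM_SAL and 183.8 to 274.6 CPM in PBS_CP, nearly the same range. Type I interferon response genes had 0 calls among 23 measured members in edgeR's quasi-likelihood test, 12 higher and 0 lower at an unadjusted p under 0.05 and 4 higher by DESeq2, and 22 had a positive fold change (median 0.421; 52.4% of all genes were positive). MHC class II genes also had 0 calls among 11 members, with 7 higher and 0 lower unadjusted, 0 by DESeq2, and all 11 fold changes positive (median 0.332). T cell genes (17 members), B cell and plasma cell genes (21) and immunoglobulin constant regions (11) had 0 calls in edgeR's fit on 27 libraries and 0 in DESeq2, and together 2 higher and 2 lower at an unadjusted p under 0.05. Ighg1, the heavy chain of IgG1 (1.93 ± 1.10, adjusted p = 0.498), was called in the fits on the 13 compared libraries alone (adjusted p = 0.0199) and on 12 without PBS_CP 57 (0.0250).

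**Figure D3:**
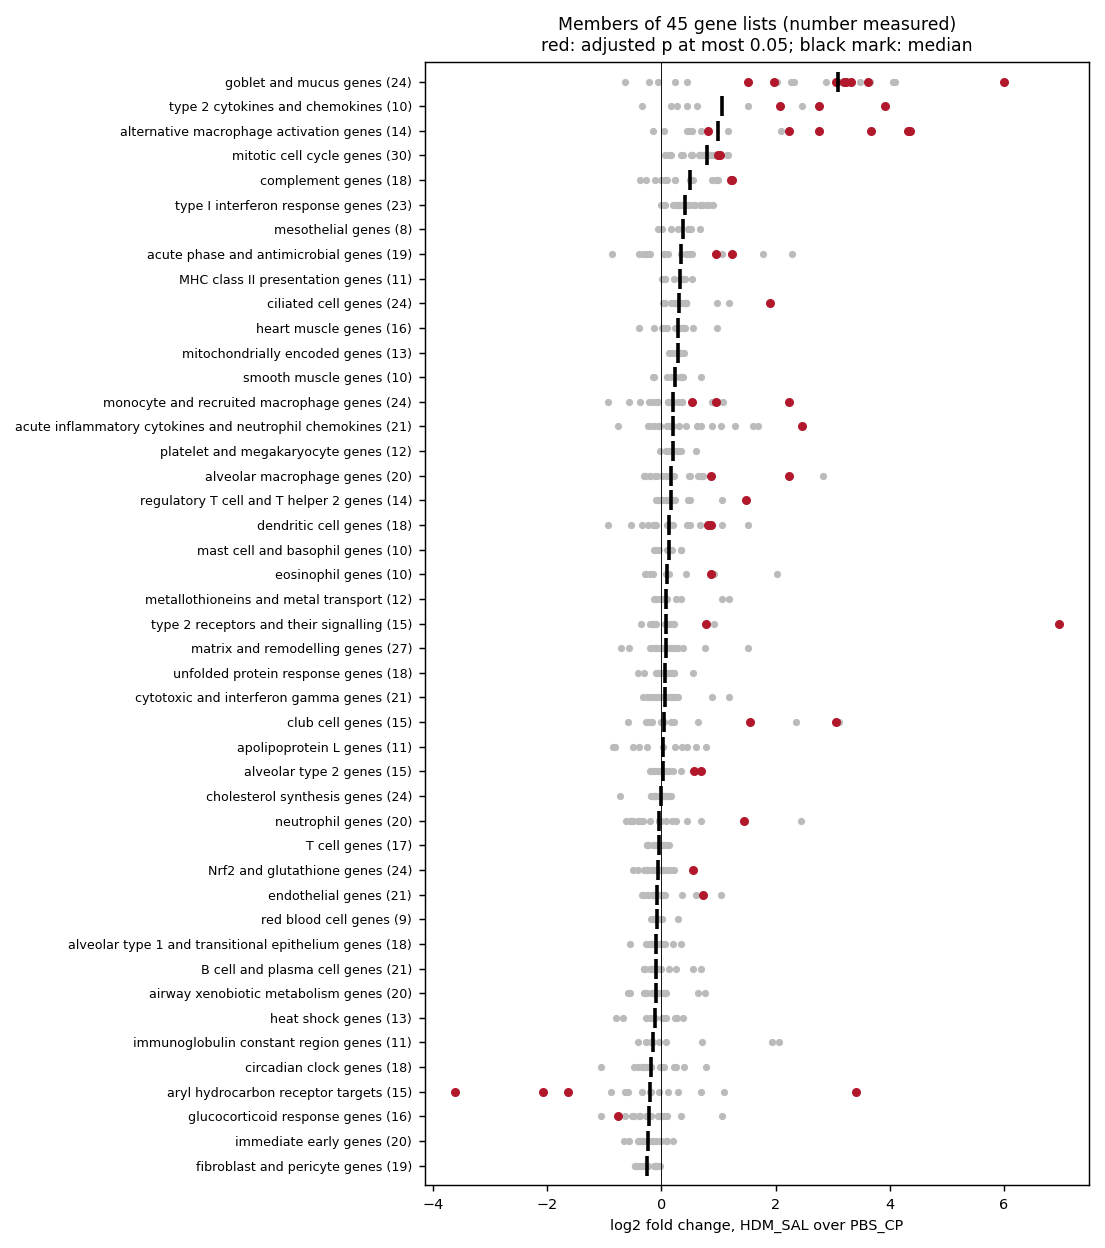
Log2 fold change of HDM_SAL over PBS_CP for the measured members of 45 gene lists, with the number measured in brackets; red points are called genes, grey points are not, and black marks are medians. Goblet and mucus genes have the highest median (3.09) and fibroblast and pericyte genes the lowest (-0.255); the points furthest right are Il13ra2 and Retnlb, whose fitted values rest on combustion libraries at or near 0 and are no measure of size.

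All called markers of alveolar type 2 and club cells were higher in HDM_SAL, a direction in which 0.564% of all genes were called. The alveolar type 2 list had 2 of 15 members called, both collectins that bind microbes and allergens. Sftpa1 had 2720.0 to 3607 CPM (median 3018) in HDM_SAL and 1858 to 2323 CPM (median 2054) in PBS_CP without overlap (0.56 ± 0.08, adjusted p = 0.000501). Sftpd had 618 to 1194 CPM (median 817) in HDM_SAL and 470.5 to 619 CPM (median 513) in PBS_CP (0.69 ± 0.12, adjusted p = 0.00728), overlapping through 1 combustion lung, PBS_CP 57. The list median was 0.0294, with 3 members higher and 1 lower at an unadjusted p under 0.05 and 2 and 0 by DESeq2. The club cell list had 2 of 15 called, Muc5b and Lypd2 (1.55 ± 0.30, adjusted p = 0.0128), and a median of 0.036. Its members were higher in 6 cases and lower in 0 at an unadjusted p under 0.05, and 4 and 0 by DESeq2.

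All 24 ciliated cell genes had a positive fold change (median 0.313) and 1 was called, against 3 without PBS_CP 57. Mcidas, which commits cells to make many cilia, had 2.19 to 7.71 CPM (median 3.17) in HDM_SAL and 0.333 to 3.51 CPM (median 0.695) in PBS_CP (1.90 ± 0.45, adjusted p = 0.0445), and was lost in 10 leave-outs (every library but HDM_SAL 52, HDM_SAL 100 and PBS_CP 57; adjusted p up to 0.157). Deup1, a scaffold for centriole amplification, had 4.68 to 17.9 CPM (median 7.62) in HDM_SAL and 2.75 to 9.36 CPM (median 3.03) in PBS_CP and was called without PBS_CP 57, HDM_SAL 52 or HDM_SAL 100 alone (1.55 ± 0.26, adjusted p = 0.0013 without PBS_CP 57) but not with all libraries (1.18 ± 0.30, adjusted p = 0.0629). Summed ciliated markers spanned 653.5 to 1365 CPM in HDM_SAL and 650.6 to 904.6 CPM in PBS_CP. Mitotic genes shared a direction as well, with 30 of 30 positive and a median of 0.795. In that list 2 were called higher (26 higher and 0 lower at an unadjusted p under 0.05, 13 by DESeq2), Birc5 (1.00 ± 0.23, adjusted p = 0.0356) and Ube2c (1.02 ± 0.23, adjusted p = 0.0356), which act in chromosome segregation and mitotic exit. Both calls were lost without HDM_SAL 50, 54 or 99 or PBS_CP 58, 59, 75 or 76 (adjusted p up to 0.167). Summed mitotic levels spanned 276.8 to 589.9 CPM in HDM_SAL, 176.1 to 344.3 CPM in PBS_CP and 168.3 to 254.1 CPM in PBS_SAL.

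Outside these lists, Adra2a, the alpha-2A adrenergic receptor, had 4.05 to 35.9 CPM (median 16.5) in HDM_SAL and 0.212 to 7.43 CPM (median 0.697) in PBS_CP (3.44 ± 0.66, adjusted p = 0.0142). PBS_CP 57 alone overlapped the allergen lungs, and the fold change was 4.88 ± 0.52, adjusted p = 1.04e-05 without it. Col6a5, a chain of collagen VI, had 3.34 to 17.7 CPM (median 5.57) in HDM_SAL and 0.939 to 2.71 CPM (median 1.42) in PBS_CP without overlap (2.46 ± 0.41, adjusted p = 0.00401). Me1, which makes NADPH and is a listed Nrf2 target, had 92 to 156 CPM (median 112) in HDM_SAL and 67.8 to 98.9 CPM (median 72.5) in PBS_CP (0.56 ± 0.11, adjusted p = 0.0126). Me1 was the called member among 24 Nrf2 and glutathione genes, whose median was -0.0547. Xcr1, the receptor of cross-presenting dendritic cells, had 4.03 to 7.12 CPM (median 5.25) in HDM_SAL and 2.5 to 3.56 CPM (median 2.87) in PBS_CP (0.86 ± 0.20, adjusted p = 0.0362), 1 of 2 called among 18 dendritic cell genes beside Mgl2 (lost in 8 leave-outs, HDM_SAL 50 and 99 and every PBS_CP library but 57, adjusted p up to 0.113). Tnfrsf9, a costimulatory receptor of regulatory T cells, was called among 14 regulatory T and T helper 2 genes (1.48 ± 0.34, adjusted p = 0.04; lost in 9 leave-outs, HDM_SAL 50, 54 and 99 and every PBS_CP library but 57, up to 0.214). Selp, the selectin on which leukocytes roll along vessel walls, was the called one of 21 endothelial genes (0.73 ± 0.18, adjusted p = 0.0444; lost in 10 leave-outs, kept without HDM_SAL 52, HDM_SAL 100 or PBS_CP 57, up to 0.113). All 13 mitochondrially encoded genes had a positive fold change (median 0.29), with 0 called in edgeR's test, 11 higher and 0 lower at an unadjusted p under 0.05 and 4 higher by DESeq2.

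Against PBS_SAL, 2 genes were called higher in PBS_CP, so a gene lower in HDM_SAL than in PBS_CP need not be raised by combustion products. The 21 genes called lower in HDM_SAL were led by aryl hydrocarbon receptor targets. Of the 15 listed, 3 were lower in HDM_SAL and 1 was higher, against 0.0853% and 0.564% of all genes (7 lower and 2 higher at an unadjusted p under 0.05), and the median was -0.204. Cyp1a1, a cytochrome P450 that oxidizes polycyclic hydrocarbons (chromosome 9, 57595211 to 57611107), had 16.2 to 60.2 CPM (median 25.4) in HDM_SAL and 41.4 to 1028 CPM (median 254) in PBS_CP. HDM_SAL stayed near the PBS_SAL median of 26.6 CPM, whereas PBS_CP spread over more than an order of magnitude, at 254, 41.4, 116, 109.6, 642, 364 and 1028 CPM for numbers 57, 58, 59, 75, 76, 101 and 102. PBS_CP 58, the lowest, was under HDM_SAL 54 (60.2 CPM). The fold change was -3.62 ± 0.66, adjusted p = 0.0101, and -3.69 ± 0.68, adjusted p = 0.00581 without PBS_CP 57. Against the shared PBS_SAL group it was 0.25 ± 0.59 in HDM_SAL (not called) and 3.87 ± 0.62 in PBS_CP (adjusted p = 0.0279). The Cyp1a1 call depended on which libraries were fitted, and the cause was not tested. Fitted on the 13 compared libraries alone, its adjusted p was 0.0582, and 0.0597 when PBS_CP 57 was left out as well. In that smaller fit Nqo1 (adjusted p = 0.0532), Cyp1b1 (0.125) and Ces1g (0.0855) also missed the threshold, with fold changes as before.

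Cyp1b1, a related hydroxylase (chromosome 17, 80008966 to 80022490), had 0.979 to 34.8 CPM (median 13.8) in HDM_SAL and 29.5 to 105 CPM (median 57.3) in PBS_CP (-2.09 ± 0.47, adjusted p = 0.0374). HDM_SAL 100 had 0.979 CPM, where the next allergen lung had 12.5 CPM, and the call was lost without HDM_SAL 50, 72 or 99 or PBS_CP 59, 75, 76, 101 or 102 (adjusted p up to 0.133). Nqo1, a quinone reductase under both this receptor and Nrf2 (chromosome 8, 108114857 to 108129838), had 2.9 to 9.49 CPM (median 4.89) in HDM_SAL and 8.15 to 34.4 CPM (median 14.1) in PBS_CP, against a PBS_SAL median of 7.05 CPM (-1.63 ± 0.30, adjusted p = 0.00843). The Nqo1 ranges overlapped through HDM_SAL 54, the highest allergen lung, and PBS_CP 58, the lowest combustion lung. These 2 libraries held the same places for Cyp1a1, Cyp1b1 and Nqo1. In PBS_CP against PBS_SAL, 1 of the 15 listed targets was called, Cyp1a1, so Cyp1b1 and Nqo1 were not called there. In HDM_SAL against PBS_SAL, 0 of the 15 were called lower. Ahrr and Tiparp, feedback repressors of the receptor, were not called (-0.64 ± 0.38, adjusted p = 0.507, and -0.19 ± 0.07, adjusted p = 0.205). Scin, an actin-severing protein on the same list, went the other way, at 0.864 to 24.8 CPM (median 12.5) in HDM_SAL and 0.249 to 4.25 CPM (median 0.542) in PBS_CP (3.42 ± 0.76, adjusted p = 0.0356; lost without HDM_SAL 50, 54 or 99 or any PBS_CP library but 57, adjusted p up to 0.107).

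The promoters of Cyp1a1 (chr9:57697363-57697662, plus strand) and Cyp1b1 (chr17:79715012-79715311, minus strand) are shown because these genes had the largest differences toward PBS_CP among the genes named by rule. Each window holds 1 match to GCGTG, the core of the aryl hydrocarbon receptor element, in capitals, and in Cyp1b1 the match is on the opposite strand and reads CACGC. Build, source and window are as for the promoters above.
Cyp1a1: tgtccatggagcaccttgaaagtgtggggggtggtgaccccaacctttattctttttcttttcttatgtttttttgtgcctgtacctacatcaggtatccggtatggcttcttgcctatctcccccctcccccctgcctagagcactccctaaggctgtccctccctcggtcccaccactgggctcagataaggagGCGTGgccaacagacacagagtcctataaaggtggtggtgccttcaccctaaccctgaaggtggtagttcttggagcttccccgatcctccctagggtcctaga
Cyp1b1: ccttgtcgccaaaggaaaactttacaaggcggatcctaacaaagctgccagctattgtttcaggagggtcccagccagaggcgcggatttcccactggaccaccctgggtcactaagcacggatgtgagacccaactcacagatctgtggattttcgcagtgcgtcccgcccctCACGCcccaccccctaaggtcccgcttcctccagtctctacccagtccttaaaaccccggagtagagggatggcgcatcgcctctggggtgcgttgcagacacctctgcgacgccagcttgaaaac
The match begins 54 bases before the gene start of Cyp1a1 and 76 before that of Cyp1b1. On both strands GCGTG occurred in 32.4% of all 32851 windows. Of the 21 genes lower in HDM_SAL, 17 had a window, and 10 of these (58.8%) had a match in any window. Of the 139 higher genes, 95 had a window and 27 (28.4%) a match. As for the promoters above, the first share counts windows and the others count genes, so they are not like for like. Known enhancer elements of Cyp1a1 lie further upstream than this window reaches.

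Ces1g, a carboxylesterase of lipid and drug metabolism (chromosome 8, 94028997 to 94063936), had 3.21 to 8.13 CPM (median 5.97) in HDM_SAL and 8.24 to 59.6 CPM (median 14) in PBS_CP, with PBS_SAL between them at a median of 10.8 CPM. The groups did not overlap (-1.88 ± 0.36, adjusted p = 0.0128). Against the shared PBS_SAL group, HDM_SAL differed by -0.94 ± 0.35 and PBS_CP by 0.94 ± 0.33. These differences had opposite signs and neither was called. Reads of this gene could be shared with other members of the Ces1 cluster. Apol7c, an apolipoprotein L gene (chromosome 15, 77409052 to 77417516), had 2.21 to 4.03 CPM (median 3.21) in HDM_SAL and 4.07 to 8.54 CPM (median 5.34) in PBS_CP. The groups did not overlap, yet the difference was not called (-0.85 ± 0.22, adjusted p = 0.0631). It was called in 4 of 32 alternatives: without HDM_SAL 100 (adjusted p = 0.0386), with the runs of library numbers as a term (0.0398), by DESeq2 (0.00915) and by DESeq2 without PBS_CP 57 (0.0119). Apol7c and Cyp1a1 were the 2 genes called in PBS_CP against PBS_SAL (1.41 ± 0.21, adjusted p = 0.00831 for Apol7c).

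Tsc22d3, a glucocorticoid-induced leucine zipper protein that restrains inflammation, had 90.0 to 155 CPM (median 117) in HDM_SAL and 165 to 268 CPM (median 205) in PBS_CP without overlap, beside a PBS_SAL median of 204 CPM (-0.77 ± 0.18, adjusted p = 0.0465). Its log2 fold change against PBS_SAL was -0.87 ± 0.18 in HDM_SAL and -0.10 ± 0.17 in PBS_CP. The call was lost in 10 leave-outs (every library but HDM_SAL 52, HDM_SAL 72 and PBS_CP 57; adjusted p up to 0.172). It was the called one of 16 glucocorticoid response genes (6 lower and 1 higher at an unadjusted p under 0.05; median -0.225). Per1, a clock gene that glucocorticoids also induce, had 35.5 to 108 CPM (median 65.8) in HDM_SAL and 113 to 196 CPM (median 136) in PBS_CP without overlap and was not called (-1.07 ± 0.29, adjusted p = 0.091). Of 18 circadian clock genes 0 were called in edgeR's test, 3 lower and 1 higher at an unadjusted p under 0.05 and 1 lower by DESeq2 (median -0.186).

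Bmper, a secreted regulator of bone morphogenetic proteins, had 20.6 to 24.9 CPM (median 23.8) in HDM_SAL and 28.6 to 40.9 CPM (median 33.4) in PBS_CP without overlap (-0.52 ± 0.10, adjusted p = 0.00991). Fndc1 and Igsf10, which encode extracellular proteins, were lower by like amounts (-0.52 ± 0.11, adjusted p = 0.0214, and -0.38 ± 0.09, adjusted p = 0.0481). The Fndc1 call was lost in 6 leave-outs (HDM_SAL 50, 54 and 99, PBS_CP 58, 76 and 102; adjusted p up to 0.0761) and the Igsf10 call in 10 (every library but HDM_SAL 52, HDM_SAL 100 and PBS_CP 57; up to 0.167). Selenbp1, a selenium-binding methanethiol oxidase with a close paralog (-0.56 ± 0.13, adjusted p = 0.0444; lost in 11 leave-outs, kept without HDM_SAL 54 or PBS_CP 57, up to 0.164) and the zinc finger gene Zfp618 (-0.69 ± 0.14, adjusted p = 0.0153; lost without HDM_SAL 50 or 99, up to 0.0596) completed the 10 lower genes that the naming rule gave. All 19 fibroblast and pericyte markers had a negative fold change (median -0.255). Of them 0 were called in edgeR's test, 12 were lower and 0 higher at an unadjusted p under 0.05, and 2 were lower by DESeq2. Their CPM summed to 6466 to 8042 in HDM_SAL, 7964 to 9645 in PBS_CP and 8536 to 10180.0 in PBS_SAL, and how far this goes with Bmper, Fndc1 and Igsf10 was not tested.

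Stress and sterol programs had few or 0 calls. In heat shock genes (13 members) 0 were called in edgeR's test and 0 by DESeq2, with 3 lower and 2 higher at an unadjusted p under 0.05. Hspa1a, an inducible chaperone, had 17.6 to 176 CPM (median 55) in HDM_SAL and 20.6 to 291 CPM (median 88) in PBS_CP, wide and overlapping ranges (-0.80 ± 0.55, adjusted p = 0.596). Hmox1, the haem-degrading enzyme induced by oxidative stress, had 27.7 to 34.3 CPM (median 31) in HDM_SAL and 27.8 to 34 CPM (median 29.7) in PBS_CP (0.03 ± 0.09, adjusted p = 0.932), and its sign turned under 6 of 32 alternatives. Cholesterol synthesis genes (24 members) had 0 calls in edgeR and in DESeq2, and 2 lower unadjusted. Unfolded protein response genes (18 members) had 0 calls in edgeR's test with all libraries, 5 higher and 1 lower at an unadjusted p under 0.05 and 1 each way by DESeq2, and 1 lower without PBS_CP 57, Herpud1, which acts in degradation of misfolded proteins (-0.34 ± 0.08, adjusted p = 0.0465). In all, 24 of the 45 lists had 0 called members. Of 710 distinct measured list genes, 36 were called higher (5.07%) and 4 lower (0.563%), against 0.564% and 0.0853% of all genes. The lists were chosen with earlier results of these data known, so these shares are not a test of them.

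PBS_CP 57 was then placed on the genes chosen without it. The genes called higher in HDM_SAL than in the 6 other PBS_CP libraries numbered 211. PBS_CP 57 lay above those 6 and within the HDM_SAL range for 121 of them (57.3%, against 9.4% of all genes). It lay above those 6 but under the HDM_SAL range for 36 (17.1%, against 0.211% of all genes). That place exists only where HDM_SAL lies wholly above those 6, at 234 of all genes (0.95%). The choice of the 211 favours such genes, so the share over all genes is no fair measure for these 36. For 53 of the 211 (25.1%) it lay within the range of the other combustion lungs, where it lay for 75% of all genes. On a scale with the median of the 6 other PBS_CP libraries at 0 and that of HDM_SAL at 1, the median position of PBS_CP 57 over these genes was 0.564, next to HDM_SAL 52 at 0.551 and HDM_SAL 100 at 0.677. The 4 other allergen lungs stood at 0.937 to 1.35, and PBS_SAL libraries at -0.114 to 0.164. PBS_SAL was not in the contrast that chose the genes, but it entered the fit through the filter, scaling and spread. Over the 33 genes lower in HDM_SAL without it, PBS_CP 57 stood at 0.444 and lay below the other combustion lungs for 18 (54.5%; 11.7% of all genes).

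**Figure D4:**
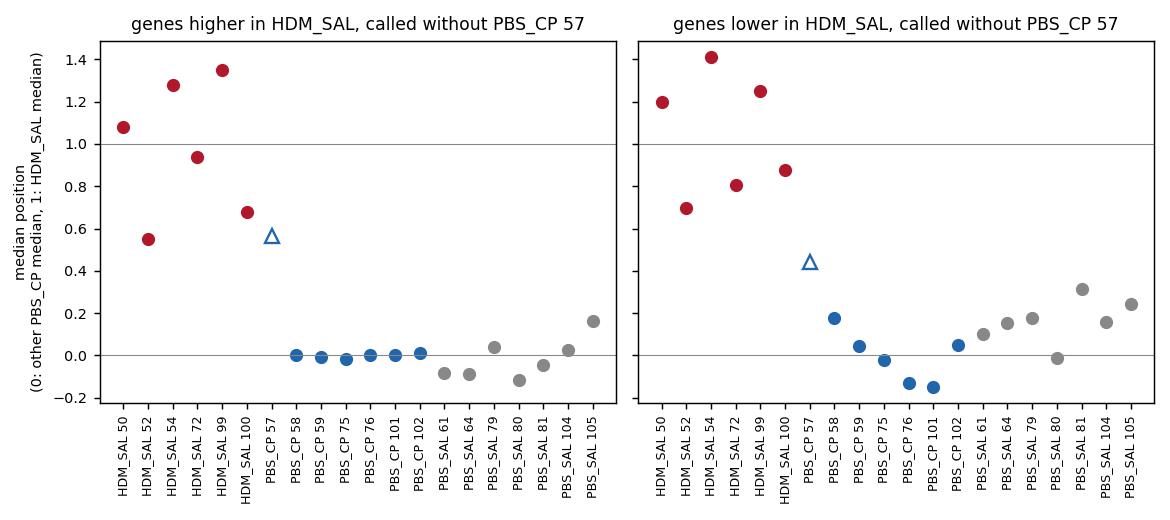
Median position of each library between the median of the 6 other PBS_CP libraries (0) and the HDM_SAL median (1), over genes called higher (left) or lower (right) in HDM_SAL without PBS_CP 57. The open triangle is PBS_CP 57, at 0.564 and 0.444. The contrast that chose the genes compared HDM_SAL libraries (red) with the other PBS_CP libraries (blue). PBS_SAL libraries (grey) were not in that contrast but entered the fit through the filter, scaling and spread.

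Leaving out PBS_CP 57 moved some named genes by more than their standard error and others by less. The log2 fold change of Retnla was 5.0 ± 0.44 without that library and 3.67 ± 0.64 with it, that of Chil4 6.24 ± 0.78 and 4.33 ± 0.90, and that of Fcgbp 5.09 ± 0.62 and 3.33 ± 0.78. Those of Chil3 (2.35 ± 0.31 without it), C3 (1.32 ± 0.19), Cyp1a1 (-3.69 ± 0.68), Nqo1 (-1.67 ± 0.31) and Bmper (-0.53 ± 0.10) moved by less than their standard errors. In all, 87 genes were called without that library but not with it, 3 with it but not without it, and 157 in both fits.

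**Figure D5:**
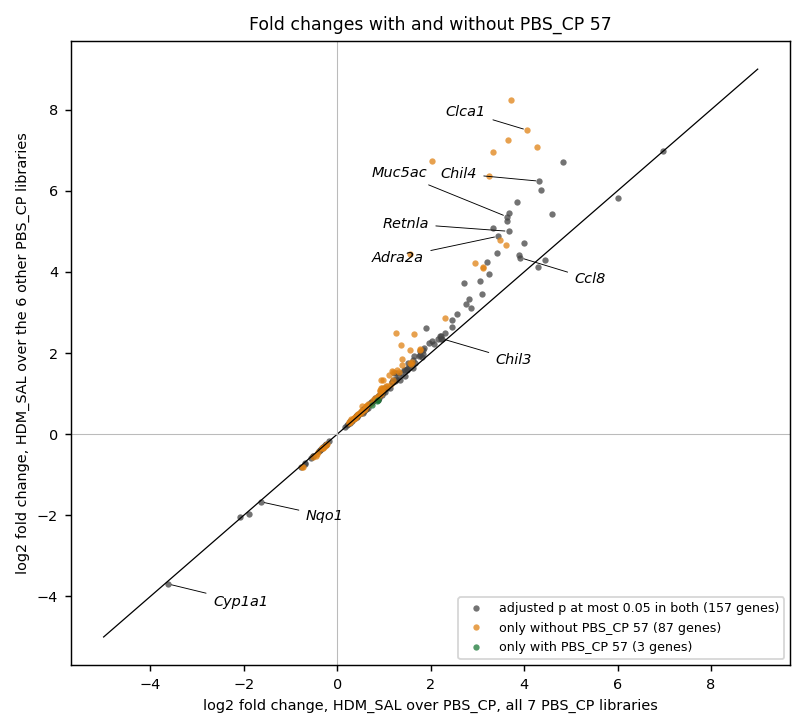
Log2 fold change of HDM_SAL over PBS_CP with all 7 PBS_CP libraries (x axis) and without PBS_CP 57 (y axis) for the genes called in either fit; grey genes were called in both (157), orange without PBS_CP 57 only (87) and green with it only (3). The line marks equal values: Cyp1a1, Nqo1 and Chil3 lie on or near it, and Clca1 (4.06 with and 7.50 without) and Chil4 lie well above it.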

How the data were processed

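Whole-lung polyA RNA was sequenced per the labels' protocols, with 20 M pairs of 150 bases planned per library. The submitters' processing notes name genome build GRCm39, StringTie 2 and, with no version, STAR. The authors deposited estimated counts per gene, which summed to 2.82 to 4.22 times the planned pairs. The scale of these values is not explained, so precision from counting was not read from them. The authors also deposited TPM values, used in an alternative. Estimated counts were rounded to whole numbers; 310 genes without a symbol (0.06% of counts) are not named. Of 56941 genes, 24629 passed edgeR's filterByExpr (minimum count 10) over 4 groups. TMM scaling and edgeR 4.0.16 quasi-likelihood tests (R 4.3.3) on 27 libraries with 1 term per group gave the HDM_SAL over PBS_CP contrast, two-sided, with Benjamini-Hochberg adjustment at 0.05; the HDM_CP group entered the fit for its spread. DESeq2 1.42.0 and limma 3.58.1 on log2(TPM + 1) were alternatives. The labels number the libraries and do not state that each is a separate mouse, so p-values measure the spread between these libraries, which may be partly technical.

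The members, the 45 gene lists and the naming rule were chosen with earlier results of these data known. The rule named the 10 called genes with the largest fold change in each direction (mean log2 CPM of at least 1, without predicted genes and receptor segments), a list of fixed names, and from each list up to 4 called members, or 2 members in all where fewer than 4 were called. List members were counted, not tested as sets. No source used here says that strand was used in counting, and antisense and paralogous genes may share reads. The scripts were tested on simulated counts. Promoter sequences come from RefSeq tables on GRCm38.p6, and their coordinates are not those of the counts.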

Additional observations from a re-analysis of the deposited data

Results flagged for a closer look

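In 224 checks of groups of 6 or 7 libraries, 24 had 1 library whose gap to the next, as a share of the group's range in log2 CPM, passed Dixon's critical value at the 95% level. Chance flags about 1 in 20 groups. PBS_CP 57 was the highest combustion library in 11 of them: Pigr (share 0.705; 149.9 CPM against 69.0 in the next library), Chia1 (0.689; 204.3 against 74.4), Chil4 (0.769; 59.5 against 4.10), Cfi (0.642; 1.99 against 0.954), Clca1 (0.795; 515.1 against 11.1) and Fcgbp (0.784; 57.9 against 4.44). The same library was highest for Muc5ac (0.838; 42.6 against 3.11), Deup1 (0.802; 9.36 against 3.51), Slc26a4 (0.832; 28.7 against 6.32), Sftpd (0.574; 619 against 528.8) and Adra2a (0.653; 7.43 against 0.762).

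HDM_SAL 99 was the highest allergen library for Cxcl10 (0.64; 8.75 CPM against 3.98), Oas1a (0.762; 29.7 against 14.0), Ccr2 (0.675; 137.1 against 94.6), Wfdc21 (0.636; 5.35 against 3.74) and C3 (0.631; 2733 against 1742), and the lowest for Gstm1 (0.651; 187.6 against 234.6). HDM_SAL 100 was highest for Zfp618 (0.665; 5.03 against 3.48) and lowest for Il13 (0.74; 0.0720 against 0.558) and Cyp1b1 (0.711; 0.979 against 12.5). HDM_SAL 72 was highest for Ighg3 (0.788; 9.41 against 0.599) and lowest for Msln (0.689; 24.9 against 53.8). PBS_CP 58 was the sole combustion library above 0 for Retnlb (share 1; 0.0606 CPM) and the lowest for Acta2 (0.598; 103.6 against 166).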

How the results depend on the processing

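Against 160 calls, the number was 499 with DESeq2 (612 without PBS_CP 57), 89 and 98 with limma on log2(TPM + 1) and log2(TPM + 0.1), 44 without a filter on TPM, 7 when tested against a 2-fold limit and 67 without libraries under 60 M. It was 46 to 384 when 1 library was left out. With choices made after seeing the data, it was 6 without the HDM_SAL libraries of highest mitochondrial share (50, 54 and 99) and 34 without these and PBS_CP 57; DESeq2 without PBS_CP 57 and the fit on 12 libraries were added then too. DESeq2 gave 2009 calls for HDM_SAL against PBS_SAL and 32 for PBS_CP against PBS_SAL. The cause was not tested. The log2 fold change turned sign for genes not called: Hmox1 (-0.0326, -0.0333, -0.0326, -0.00494, -0.0602 and -0.0675; leave-outs up to 0.0595), Alas2 (0.00786, 0.305 and 0.219; leave-outs from -0.445), Ighg3 (-0.105; leave-outs up to 2.58), Hdc (-0.0309), Kit (0.0769 and 0.0613) and Tcf7 (0.00932). With the 3 runs of library numbers as a term, which the labels do not call batches, 132 genes were called (116 higher, 16 lower; 122 shared with the 160). Of 48 called named genes, 9 lost the call in that fit: Ccl24 (adjusted p = 0.0720), Cfi (0.0569), Cxcl5 (0.0621), Ear2 (0.0517), Igsf10 (0.0575), Mcidas (0.0560), Selenbp1 (0.0636), Selp (0.0521) and Tnfrsf9 (0.0569). Apol7c (0.0398) and Sdf2l1 (0.0225) gained one. The direction of all 48 was the same within each run, which the calls on the same libraries favour. No paired analysis was possible because the groups compared share no replicate numbers. Depth is given only as estimated counts, so counting error was not separated from the spread between libraries.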
